A study of Mus musculus with 6 samples.

Results

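The genes described here are 45 interferon-stimulated genes, that is genes whose transcription interferon is known to raise in many cell types. They were chosen by symbol, with earlier results of these data known, from a table of 21684 mouse genes, and each of the 45 matched 1 row. RNA was sequenced from primary murine haematopoietic cells of bone marrow, in 3 libraries of cells overexpressing the RUNX1-RARA fusion and 3 libraries of cells carrying the empty vector. The fusion combines RUNX1, a regulator of blood formation, with the retinoic acid receptor alpha, and the comparison asked which genes differ between cells with and without it. Both groups had been transduced, and the labels give no strain, age, culture time or number of mice. They also do not say whether the replicates came from separate animals or cultures, so p-values reflect library-to-library spread alone, and that spread may be technical.

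Type I interferons bind a receptor of the chains IFNAR1 and IFNAR2, whose kinases JAK1 and TYK2 activate STAT2 and other transducers. With IRF9, STAT2 is part of the complex ISGF3, which binds the interferon-stimulated response element in the promoters of its targets. The induced proteins recognise foreign nucleic acid, block translation or entry of viruses, and feed back on the receptor. Haematopoietic cells also express many of these genes at a lower level without an added stimulus.

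Between 10375 and 10552 genes reached 1 FPKM in a library. FPKM hold no read totals, and depth estimated from their steps was 26.6 to 40.6 M reads in RUNX1-RARA and 33.2 to 90.4 M reads in empty vector libraries. Pearson correlation across genes on the log2(FPKM + 1) scale was 0.996 at its lowest within groups and 0.851 to 0.857 between them. Of the 2 genes joined in the fusion, Runx1 averaged 21.9 ± 0.248 FPKM in RUNX1-RARA and 17.7 ± 0.993 FPKM in empty vector cells, and Rara averaged 15.4 ± 1.57 FPKM in RUNX1-RARA and 12.6 ± 1.33 FPKM in empty vector cells (SD, n = 3 per group). Counts to either gene cannot tell the mouse gene from a transgene of similar sequence.

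In RUNX1-RARA cells most of these genes were lower, and a few were higher. Of the 45 members, 39 had at least 1 FPKM (fragments scaled to gene length and to sequencing depth) in 3 or more libraries and were tested with limma on log2(FPKM + 1). At a Benjamini-Hochberg adjusted p under 0.05, 31 fell, 4 rose and 4 were not called. Over all 10901 tested genes, 77.7% were called, with 31.7% called lower and 46% called higher. Called falls of at least 2-fold in FPKM + 1 occurred in 16 of the 39 members and in 9.72% of all tested genes, and no member rose that far, against 6.12% of all tested genes. The median log2 fold change was -0.79 over the tested members and 0.11 over all tested genes. Of the 39, 11 reached 1 FPKM only in empty vector libraries and so had to be lower to differ. Of the other 28, which reached it in RUNX1-RARA libraries too, 20 fell, 4 rose and 4 were not called.

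The RUNX1-RARA libraries all lay below the empty vector libraries for 31 of the 39 tested members, and for 32.4% of all tested genes. They all lay above them for 4 (Bst2, Ifi35, Stat2 and Trim25), against 46.8% of all tested genes. The 6 members that were too low to test were Oasl1, Ifit3, Mx2, Gbp4, Gbp5 and Ifi44. In 5 of them every RUNX1-RARA library was below every empty vector library, and in Gbp4 the groups overlapped. In bulk RNA, fewer cells of a type and less RNA per cell cannot be told apart. After TMM scaling (a trimmed mean of ratios that centres the genes), the median over all tested genes was 0.0047, calls over all genes were 50.0% higher and 50.0% lower instead of 59.2% and 40.8%, and 33 members fell and 3 rose.

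**Figure D1:**
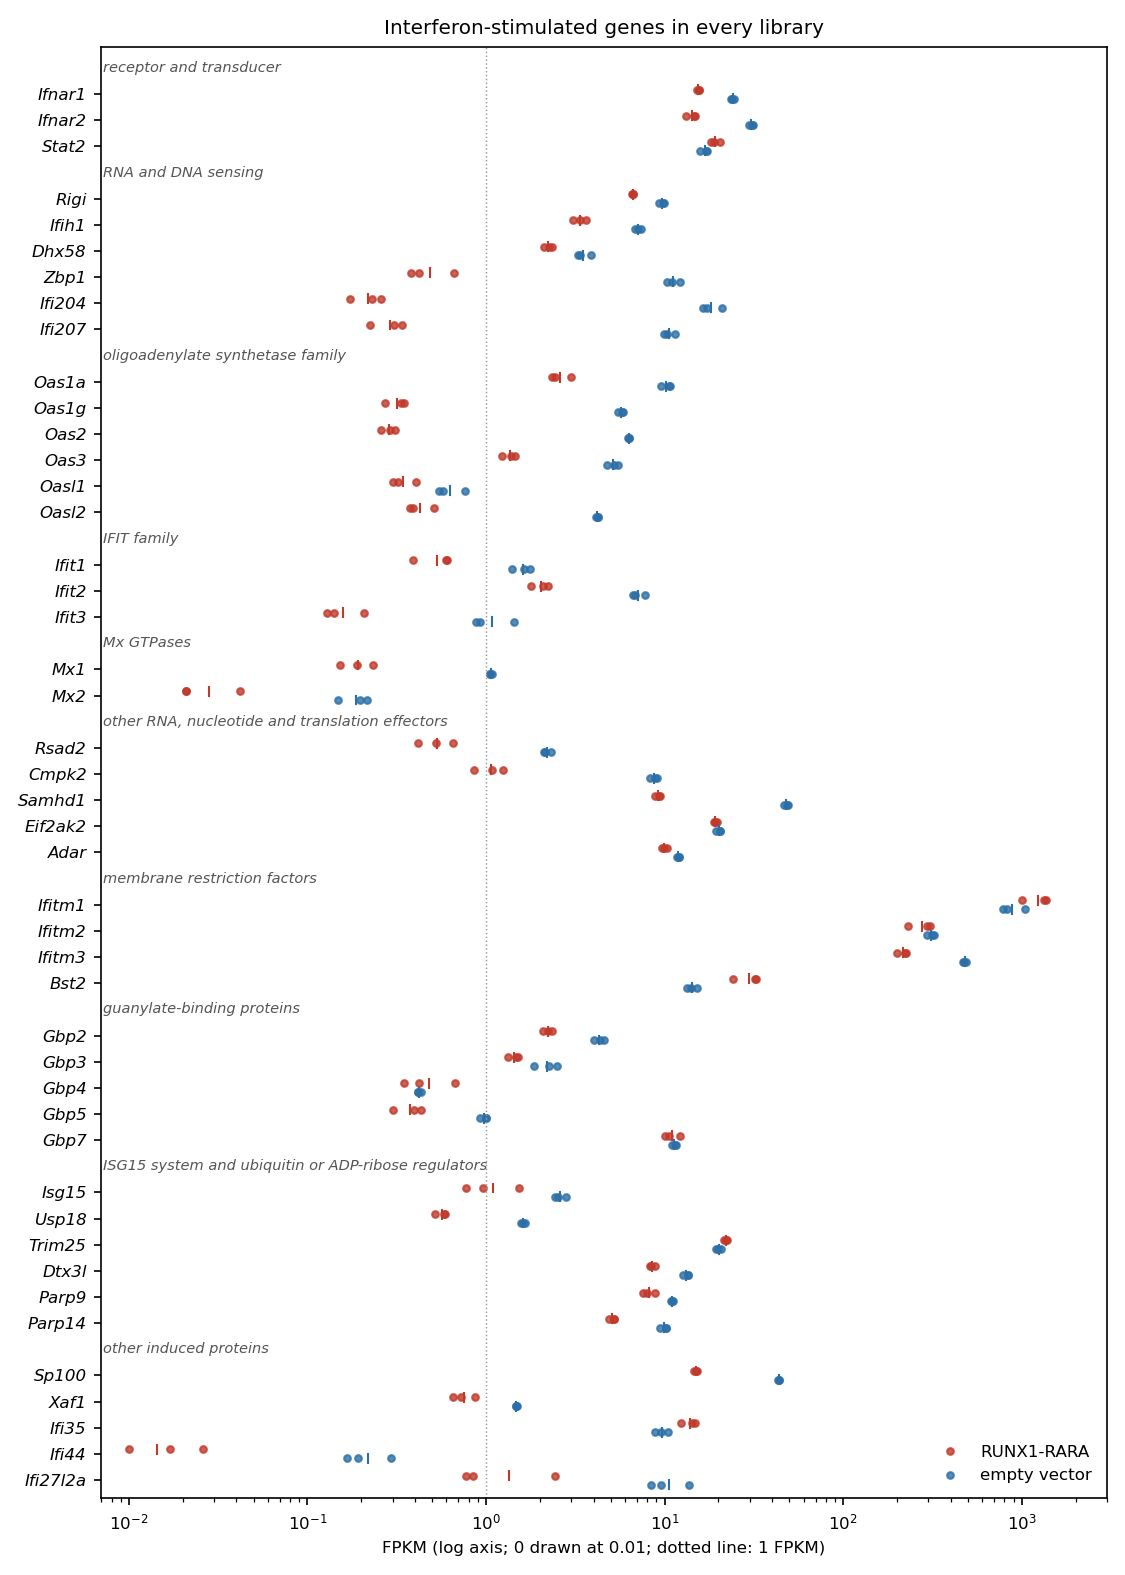
FPKM on a log axis for the 45 interferon-stimulated genes, grouped by role, with 3 RUNX1-RARA libraries (red) above 3 empty vector libraries (blue) in each row and a short bar at the mean. The RUNX1-RARA points lie to the left for most genes, and to the right without overlap for Bst2, Ifi35, Stat2 and Trim25.

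Levels were spread over a wide range per gene length. Ifitm1, Ifitm2 and Ifitm3 alone made up 86.2% to 89.2% of the members' summed FPKM in RUNX1-RARA libraries and 78.8% to 81.0% in empty vector libraries. The other 42 members summed to between 229 and 235 FPKM in RUNX1-RARA libraries and between 418 and 429 FPKM in empty vector libraries. A mean of at least 10 FPKM was reached by 12 members in RUNX1-RARA cells and by 20 in empty vector cells, and means under 1 FPKM were found for 17 members in RUNX1-RARA cells and for 5 in empty vector cells.

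The promoters of the genes were examined for the ISGF3 binding motif, since it is the known route of their induction and sequence played no part in their choice. RefSeq windows on GRCm38.p6, from 250 bases before the transcript start to 50 after it, were matched for 33 members (38 windows). Windows for Rigi, Dhx58, Zbp1, Ifi204, Oas2, Mx1, Mx2, Gbp4, Usp18, Parp9, Parp14 and Ifi27l2a were not used here. Its core, GAAA followed by any 2 bases and GAAA again, was searched on both strands and found in 18 of the 38 windows (47.4%), against 3.44% of all 32851 windows. It was present for 11 of the 21 matched members that fell, 2 of the 4 that rose, 3 of the 4 not called and 2 of the 4 not tested, so it occurred in each class. The sites below are written along the gene's strand with 10 flanking bases where the window holds them, and capitals mark the first match or run of overlapping matches. They are shown for members that fell (Isg15, Oas1a, Oas1g, Ifit1, Gbp3, Ifitm3), rose (Bst2, Stat2) or were not called (Eif2ak2, Gbp7, Ifitm2).
Isg15: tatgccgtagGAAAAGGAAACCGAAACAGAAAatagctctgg
Oas1a: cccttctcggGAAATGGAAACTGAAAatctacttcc
Oas1g: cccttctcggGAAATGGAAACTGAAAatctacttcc
Ifit1: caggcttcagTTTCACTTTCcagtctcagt
Gbp3: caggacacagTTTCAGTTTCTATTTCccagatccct
Ifitm3: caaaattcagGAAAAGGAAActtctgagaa
Bst2: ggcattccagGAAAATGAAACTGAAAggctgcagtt
Stat2: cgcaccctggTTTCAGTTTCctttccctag
Eif2ak2: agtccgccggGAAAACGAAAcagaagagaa
Gbp7: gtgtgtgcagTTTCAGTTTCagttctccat
Ifitm2: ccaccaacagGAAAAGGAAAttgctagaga
The site of Isg15 lies at chr4:156200865-156200906, - strand, that of Oas1a at chr5:120907520-120907555, - strand, that of Oas1g at chr5:120887606-120887641, - strand and that of Bst2 at chr8:71537577-71537612, - strand. In Isg15, 3 overlapping matches formed 1 run of 22 bases, and in Bst2, Oas1a, Oas1g and Gbp3, 2 overlapping matches formed a run of 16 bases. The printed sites of the neighbouring genes Oas1a and Oas1g were identical. Their windows, shifted by 2 bases against each other, matched at 207 of 298 positions.

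The whole windows of Isg15, which fell, and Bst2, which rose, are given to show both sites in context (chr4:156200769-156201068 and chr8:71537423-71537722, both on the - strand, with capitals on the matches).
Isg15: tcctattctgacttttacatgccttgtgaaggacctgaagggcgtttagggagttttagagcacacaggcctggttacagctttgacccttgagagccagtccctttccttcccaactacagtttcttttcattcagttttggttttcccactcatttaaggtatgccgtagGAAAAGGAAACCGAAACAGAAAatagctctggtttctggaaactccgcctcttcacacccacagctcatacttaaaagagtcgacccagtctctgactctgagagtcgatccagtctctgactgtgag
Bst2: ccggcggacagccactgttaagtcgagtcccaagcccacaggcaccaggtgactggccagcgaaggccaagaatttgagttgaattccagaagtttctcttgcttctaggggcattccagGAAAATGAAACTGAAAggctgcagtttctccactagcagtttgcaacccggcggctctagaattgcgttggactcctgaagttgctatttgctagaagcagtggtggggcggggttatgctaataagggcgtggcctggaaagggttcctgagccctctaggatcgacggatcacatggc
The run started at position -78 in Isg15 and at position -130 in Bst2, where 0 is the first transcribed base. The core of the gamma-activated sequence, TTCNNNGAA, searched on both strands, was in 31.6% of the members' windows and in 8.3% of all windows, and 2 of its 14 matches shared bases with a response element match. The RUNX core TGTGGT, searched on both strands, was in 18.4% of the members' windows and in 16.8% of all windows, and none of its 8 matches shared bases with a response element match. A match describes these letters only.

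**Figure D2:**
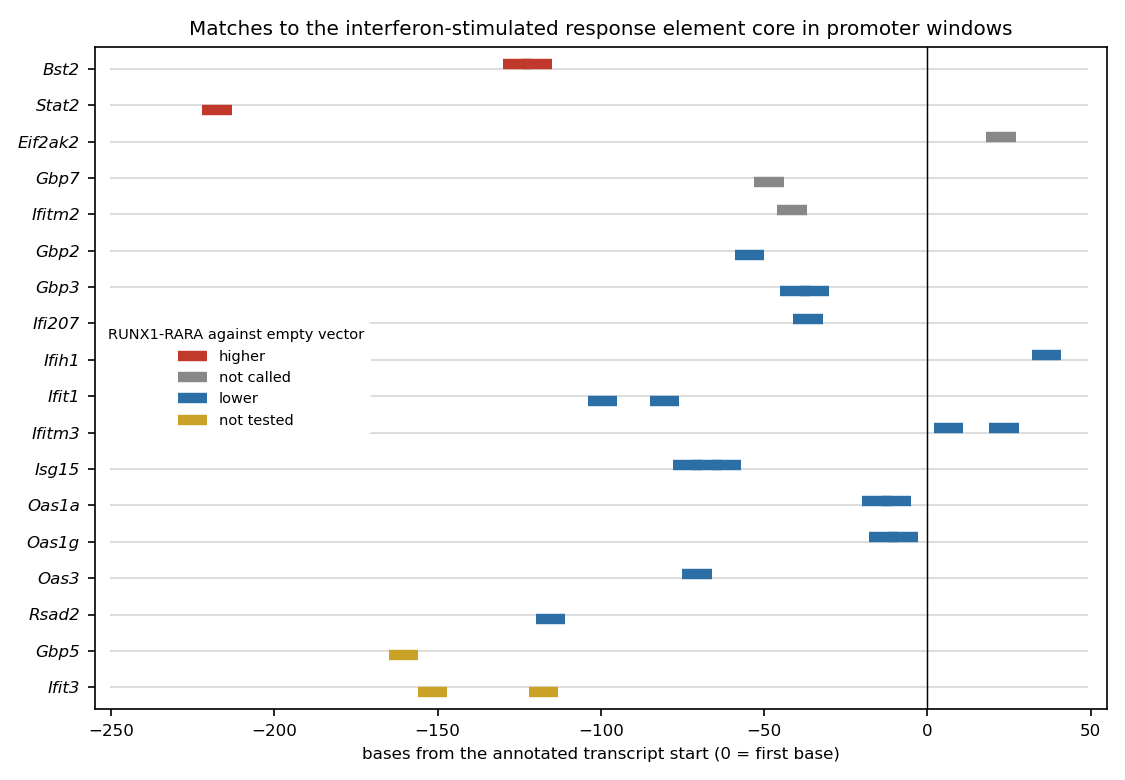
Position of each match to the response element core (either strand) in the promoter windows of the 18 members that have one, in bases from the transcript start. Colour gives the call in RUNX1-RARA against empty vector, and genes of every class carry matches.

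The genes of both chains of the type I interferon receptor fell. Ifnar1 had 15.2, 15.5 and 15.6 FPKM in RUNX1-RARA libraries, against 23.6, 24.6 and 23.8 FPKM in empty vector libraries. It changed by -0.61 on the log2 scale (SE 0.0495, limma adjusted p = 1.29e-06). Ifnar2 had 14.7, 14.6 and 13.3 FPKM with the fusion, against 30.9, 31.3 and 29.5 FPKM in empty vector, and changed by -1.06 on the log2 scale (SE 0.0578, limma adjusted p = 5.58e-08). The groups were far apart for both genes. On the same strand as Ifnar2 the annotation has Gm21970, which shares exons with it and averaged 21.1 FPKM in RUNX1-RARA and 58.0 FPKM in empty vector cells, so reads may have been split between them.

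Stat2, the ISGF3 subunit among the members, was slightly higher. It had 18.8, 18.2 and 20.3 FPKM in RUNX1-RARA libraries, against 17.3, 15.8 and 17.05 FPKM in empty vector libraries. The log2 fold change was 0.18 (SE 0.0608, limma adjusted p = 0.0185). The call of Stat2 was lost after TMM scaling, where the change was 0.07 (adjusted p = 0.319). It was also lost when RUNX1-RARA replicate 3 was left out (adjusted p = 0.0507) or empty vector replicate 2 (adjusted p = 0.0802), and 13 alternatives gave adjusted p of 0.0157 to 0.319. Irf9, named after its values were seen, encodes the DNA-binding subunit of the complex. Irf9 averaged 7.49 FPKM in RUNX1-RARA and 9.06 FPKM in empty vector cells, a log2 fold change of -0.24 (limma adjusted p = 0.00243).

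All 6 genes of sensors of foreign RNA or DNA fell, where 31.7% of all tested genes did, and the sizes differed widely. The larger falls were those of Ifi204 and Ifi207, of the mouse Ifi200 family of DNA-binding proteins, and of Zbp1, which binds Z-form nucleic acid and starts necroptosis. Ifi204 (ENSMUSG00000073489, chromosome 1, 173747293 to 173766943 on mm10) had 0.229, 0.172 and 0.257 FPKM in RUNX1-RARA libraries, against 21.1, 17.3 and 16.5 FPKM in empty vector libraries. Mean FPKM was 83.4-fold lower with the fusion (log2 fold change -3.98, SE 0.0869, limma adjusted p = 4.69e-11). Ifi207 had 0.34, 0.305 and 0.223 FPKM with the fusion and 10.4, 9.89 and 11.5 FPKM in empty vector, 36.6-fold lower (limma adjusted p = 5.60e-11). Zbp1 had 0.381, 0.664 and 0.42 FPKM with the fusion and 12.2, 10.9 and 10.3 FPKM in empty vector, 22.8-fold lower (limma adjusted p = 3.80e-10). All 3 were between 9.89 and 21.1 FPKM in each empty vector library and under 1 FPKM in each RUNX1-RARA library, so they could only be called lower.

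The genes of the helicases that sense RNA in the cytosol fell less. Ifih1, which encodes MDA5, averaged 3.35 ± 0.289 FPKM in RUNX1-RARA and 7.11 ± 0.261 FPKM in empty vector cells (SD, n = 3 per group), 2.12-fold lower. Rigi, the RIG-I gene, averaged 6.64 FPKM in RUNX1-RARA and 9.67 FPKM in empty vector cells, 1.46-fold lower. Dhx58, which encodes the regulatory helicase LGP2, averaged 2.23 FPKM in RUNX1-RARA and 3.48 FPKM in empty vector cells, 1.56-fold lower. The groups did not overlap for any of the 3, and the limma adjusted p was 1.12e-04 or lower for each.

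Oligoadenylate synthetases make the messenger that activates RNase L, and all 5 tested members of the family fell, where 31.7% of all tested genes did. Oas2, Oas1g and Oasl2 were under 1 FPKM in every RUNX1-RARA library, so these 3 were tested through their empty vector levels and could only be called lower. Oas2 had 0.311, 0.29 and 0.258 FPKM in RUNX1-RARA libraries, against 6.29, 6.35 and 6.25 FPKM in empty vector libraries, 22.0-fold lower (log2 fold change -2.50, SE 0.0565, limma adjusted p = 6.03e-11). Oas1g had 0.272, 0.347 and 0.333 FPKM with the fusion and 5.49, 5.84 and 5.78 FPKM in empty vector, 18.0-fold lower (limma adjusted p = 1.40e-10). Oasl2 fell 9.88-fold, with 0.512, 0.39 and 0.374 FPKM in RUNX1-RARA libraries against 4.26, 4.24 and 4.11 FPKM in empty vector libraries. Oas1a and Oas3 kept more of their level. Oas1a averaged 2.58 ± 0.357 FPKM in RUNX1-RARA and 10.2 ± 0.649 FPKM in empty vector cells, and Oas3 averaged 1.35 ± 0.11 FPKM in RUNX1-RARA and 5.14 ± 0.376 FPKM in empty vector cells (SD, n = 3 per group). Oasl1, which in mouse restrains translation of Irf7, was not tested and averaged 0.344 FPKM in RUNX1-RARA and 0.629 FPKM in empty vector cells. Oas1a and Oas1g are close paralogues, so their reads may not have been told apart.

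The IFIT genes, whose products bind foreign RNA and hold back its translation, were also low with the fusion. Ifit2 had 1.79, 2.08 and 2.22 FPKM in RUNX1-RARA libraries, against 6.68, 7.75 and 6.8 FPKM in empty vector libraries (log2 fold change -1.42, SE 0.0767, limma adjusted p = 5.18e-08). Ifit1 had 0.607, 0.392 and 0.593 FPKM with the fusion and 1.77, 1.64 and 1.41 FPKM in empty vector (log2 fold change -0.77, limma adjusted p = 8.72e-06). Because it reached 1 FPKM only in empty vector libraries, Ifit1 could only be called lower. Ifit3 was not tested, with 0.129, 0.206 and 0.141 FPKM in RUNX1-RARA libraries and 0.875, 0.926 and 1.43 FPKM in empty vector libraries. Its neighbour Ifit3b, a near-identical copy named after its values were seen, was listed at 0 in all RUNX1-RARA libraries and had 0.412, 0.355 and 0.407 FPKM in empty vector libraries.

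The Mx genes encode dynamin-like GTPases, and Mx1 is known to block influenza virus in mice that carry an intact allele. Mx1 had 0.232, 0.189 and 0.152 FPKM in RUNX1-RARA libraries, against 1.09, 1.05 and 1.05 FPKM in empty vector libraries (log2 fold change -0.79, SE 0.0595, limma adjusted p = 6.67e-07). It was tested through its empty vector levels alone and could only be called lower. Mx2 was lower still and was not tested, with 0.021, 0.021 and 0.042 FPKM with the fusion and 0.149, 0.196 and 0.215 FPKM in empty vector. These Mx2 values rest on an estimated 2.0, 2.1 and 6.2 reads in RUNX1-RARA libraries and 48.7, 28.8 and 25.8 reads in empty vector libraries.

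Genes of enzymes that act on nucleotides fell strongly, while 2 genes of double-stranded RNA biology differed little. Samhd1, which degrades deoxynucleotides, had 9.36, 8.83 and 9.46 FPKM in RUNX1-RARA libraries, against 46.4, 48.2 and 48.8 FPKM in empty vector libraries (log2 fold change -2.26, SE 0.0526, limma adjusted p = 7.61e-11). Cmpk2, a mitochondrial nucleotide kinase, had 1.08, 0.861 and 1.24 FPKM with the fusion and 9.11, 8.79 and 8.23 FPKM in empty vector, 8.21-fold lower (limma adjusted p = 1.53e-09). Its neighbour Rsad2, which encodes viperin, had 0.657, 0.415 and 0.522 FPKM with the fusion and 2.14, 2.32 and 2.11 FPKM in empty vector, 4.12-fold lower (limma adjusted p = 3.17e-07). Since Rsad2 reached 1 FPKM only in empty vector libraries, it could only be called lower. Adar, the editing enzyme of double-stranded RNA, averaged 9.98 ± 0.346 FPKM in RUNX1-RARA and 11.9 ± 0.18 FPKM in empty vector cells (SD, n = 3 per group), 1.19-fold lower (limma adjusted p = 0.00226). Eif2ak2, which encodes the kinase PKR, averaged 19.2 FPKM in RUNX1-RARA and 20.05 FPKM in empty vector cells and was not called (log2 fold change -0.06, limma adjusted p = 0.325). After TMM scaling Eif2ak2 was called lower (-0.17, adjusted p = 0.013).

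The genes of proteins that hold viruses at membranes split in direction. Bst2, which encodes tetherin, rose most of the members. It had 32.5, 32.0 and 24.2 FPKM in RUNX1-RARA libraries, against 15.2, 14.1 and 13.3 FPKM in empty vector libraries, 2.08-fold higher (log2 fold change 0.997, SE 0.103, limma adjusted p = 7.79e-06). Every RUNX1-RARA library was above every empty vector library. Bst2 also marks plasmacytoid dendritic cells in mouse, and Siglech, a defining gene of those cells, was listed at 0 in all RUNX1-RARA libraries and at 0.013, 0 and 0 FPKM in empty vector libraries.

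The IFITM genes, whose products restrict viral entry, lie within 55.9 kb on chromosome 7 (140954837 to 141010770 on mm10) and moved apart. Ifitm3 fell, with 225, 221 and 199.9 FPKM in RUNX1-RARA libraries against 469, 490 and 475 FPKM in empty vector libraries (log2 fold change -1.15, SE 0.0664, limma adjusted p = 8.60e-08). Ifitm1 rose, with 1328, 1370 and 1004 FPKM in RUNX1-RARA libraries against 1036, 781 and 823 FPKM in empty vector libraries (log2 fold change 0.48, SE 0.139, limma adjusted p = 0.00888). The groups of Ifitm1 overlapped, because RUNX1-RARA replicate 3 was below empty vector replicate 1, and 13 alternatives gave Ifitm1 an adjusted p of 0.00123 to 0.0412. Ifitm2 averaged 277 ± 40.4 FPKM in RUNX1-RARA and 311 ± 13.6 FPKM in empty vector cells (SD, n = 3 per group) and was not called (log2 fold change -0.18, limma adjusted p = 0.135). After TMM scaling Ifitm2 was called lower (-0.29, adjusted p = 0.0253). It shares exons with Gm45717 on the same strand, which averaged 242 FPKM in RUNX1-RARA and 270.0 FPKM in empty vector cells.

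**Figure D3:**
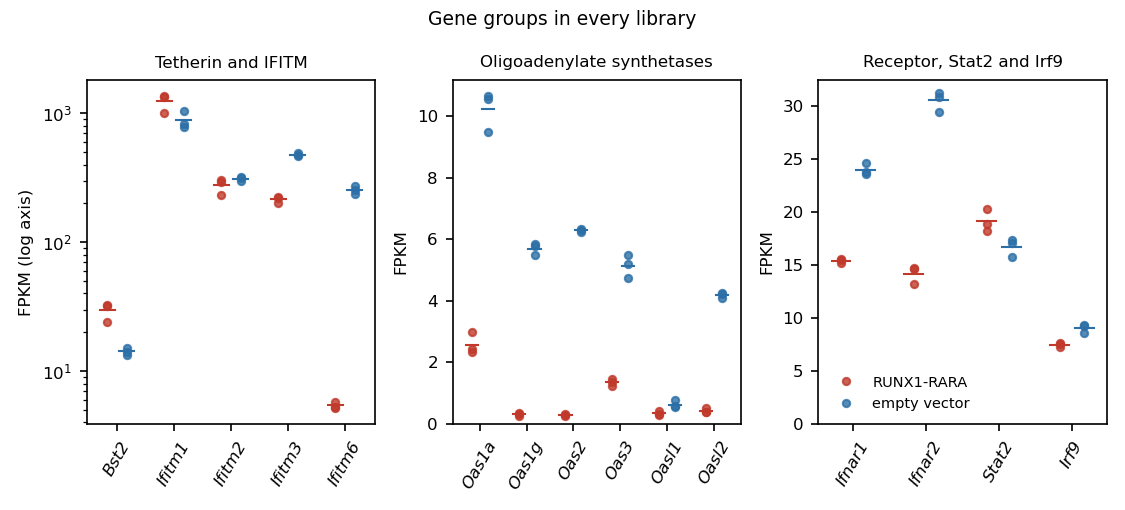
FPKM in each library, RUNX1-RARA (red) left of empty vector (blue), with bars at the means, for tetherin and the IFITM genes (log axis), the oligoadenylate synthetase family, and the receptor genes with Stat2 and Irf9. Bst2 and Ifitm1 are higher with the fusion while Ifitm3 and Ifitm6 are lower, and Stat2 is slightly higher while Irf9 is slightly lower.

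Guanylate-binding proteins are GTPases that attack the vacuoles of pathogens and are induced mainly by interferon-gamma. Gbp2 had 2.24, 2.33 and 2.09 FPKM in RUNX1-RARA libraries, against 4.6, 4.34 and 4.01 FPKM in empty vector libraries (log2 fold change -0.72, SE 0.065, limma adjusted p = 2.77e-06). Gbp3 had 1.5, 1.33 and 1.47 FPKM with the fusion and 2.27, 2.48 and 1.86 FPKM in empty vector (log2 fold change -0.39, limma adjusted p = 0.00108). Gbp7 averaged 11.0 FPKM in RUNX1-RARA and 11.3 FPKM in empty vector cells and was not called (limma adjusted p = 0.549). Of the 2 not tested, Gbp5 averaged 0.375 FPKM in RUNX1-RARA and 0.976 FPKM in empty vector cells, and Gbp4 averaged 0.481 FPKM in RUNX1-RARA and 0.422 FPKM in empty vector cells. Gbp4 shares exons on its strand with Gbp8 and Gbp9, so its level is uncertain.

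ISG15 is a ubiquitin-like protein that is coupled to other proteins, and Usp18 encodes the protease that removes it and that damps signalling at the receptor. Isg15 had 0.96, 1.53 and 0.77 FPKM in RUNX1-RARA libraries, against 2.42, 2.82 and 2.53 FPKM in empty vector libraries (log2 fold change -0.80, SE 0.117, limma adjusted p = 1.09e-04). The lowest empty vector library was above the highest RUNX1-RARA library. Usp18 had 0.592, 0.585 and 0.518 FPKM with the fusion and 1.65, 1.57 and 1.62 FPKM in empty vector (log2 fold change -0.74, limma adjusted p = 9.96e-07). As it reached 1 FPKM only in empty vector libraries, Usp18 could only be called lower. In mean FPKM Usp18 was 2.86-fold and Isg15 2.38-fold lower with the fusion. Parp14, an ADP-ribosyltransferase, was 1.95-fold lower, with 4.9, 5.21 and 5.18 FPKM in RUNX1-RARA libraries against 10.2, 10.2 and 9.43 FPKM in empty vector libraries (log2 fold change -0.85, limma adjusted p = 3.49e-07).

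Dtx3l and Parp9, which encode partners in a ubiquitin ligase complex, fell together by smaller amounts. Dtx3l averaged 8.50 FPKM in RUNX1-RARA and 13.2 FPKM in empty vector cells, 1.56-fold lower, and Parp9 averaged 8.12 FPKM in RUNX1-RARA and 11.0 FPKM in empty vector cells, 1.35-fold lower. These genes overlap on opposite strands, so without strand information some reads could not be told apart. Trim25, the ubiquitin ligase that acts on RIG-I, averaged 21.9 FPKM in RUNX1-RARA and 20.05 FPKM in empty vector cells and just missed the call (log2 fold change 0.12, limma adjusted p = 0.0503). It was called higher with a pseudocount of 0.1 (adjusted p = 0.0492) and with no filter on low values (adjusted p = 0.0342). The same held after quantile normalization (adjusted p = 0.0308) and when empty vector replicate 3 was left out (adjusted p = 0.0456). Trim25 was not called in the other alternatives, and after TMM scaling the change was 0.01 (adjusted p = 0.859).

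Among the remaining members, 3 fell and 1 rose, where 31.7% of all tested genes fell and 46% rose. Sp100, a component of PML nuclear bodies, had 15.001, 14.6 and 15.2 FPKM in RUNX1-RARA libraries, against 43.4, 44.0 and 43.4 FPKM in empty vector libraries (log2 fold change -1.49, SE 0.0483, limma adjusted p = 9.64e-10). Ifi27l2a, a small mitochondrial protein gene, had 2.43, 0.776 and 0.85 FPKM with the fusion and 13.7, 8.41 and 9.5 FPKM in empty vector (log2 fold change -2.34, SE 0.237, limma adjusted p = 7.09e-06). RUNX1-RARA replicate 1 was well above the other two, and without it the fall in mean FPKM was 12.96-fold instead of 7.80-fold. Xaf1, which promotes apoptosis, had 0.726, 0.657 and 0.872 FPKM in RUNX1-RARA libraries and 1.47, 1.49 and 1.47 FPKM in empty vector libraries (limma adjusted p = 4.60e-05). With fewer than 1 FPKM in every RUNX1-RARA library, Xaf1 could only be called lower. Ifi35 rose, with 14.2, 12.4 and 14.8 FPKM in RUNX1-RARA libraries against 8.78, 10.51 and 9.58 FPKM in empty vector libraries (log2 fold change 0.48, SE 0.08, limma adjusted p = 2.97e-04). Ifi44 was near the detection limit, with 0.026, 0 and 0.017 FPKM with the fusion and 0.191, 0.294 and 0.166 FPKM in empty vector.

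**Figure D4:**
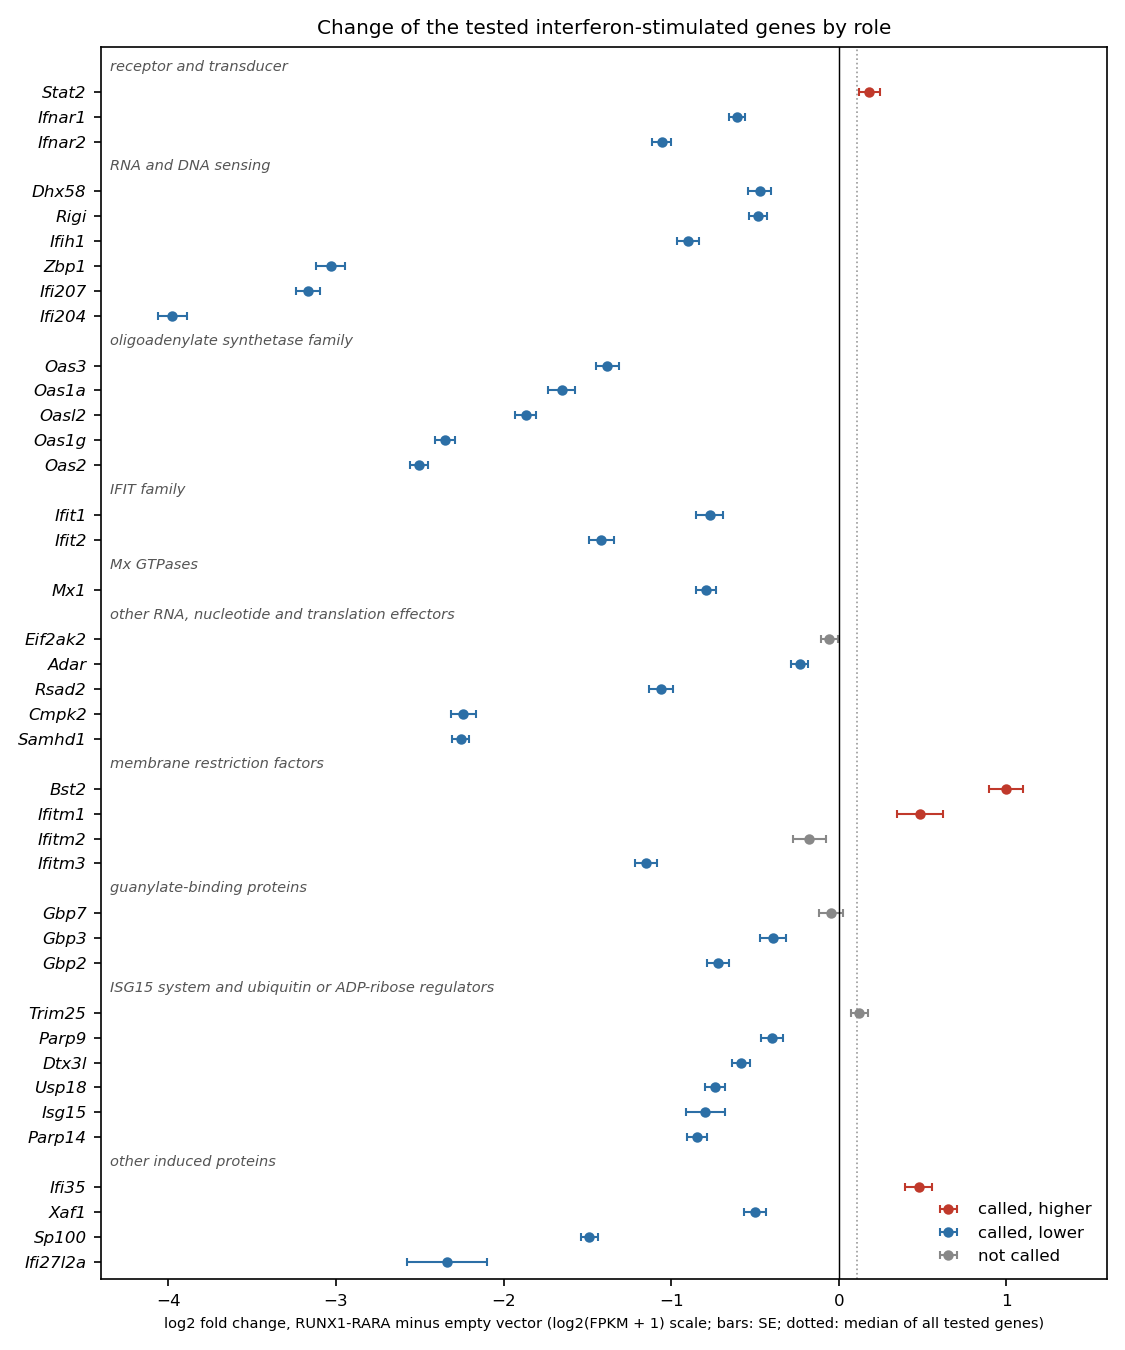
Log2 fold change (RUNX1-RARA over empty vector, from log2(FPKM + 1), bars SE) of the 39 tested members by role, coloured by call. Values run from -3.98 for Ifi204 to 0.997 for Bst2, and the dotted line marks the median of all tested genes at 0.11.

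Genes of 1 family often sit side by side: 27 of the 45 members fell into 10 groups of neighbours less than 250 kb apart on mm10. The 4 Oas genes on chromosome 5 (120730333 to 120907521) were all lower with the fusion, as were Ifi207 and Ifi204 on chromosome 1, Rsad2 and Cmpk2 on chromosome 12, and Parp14, Dtx3l and Parp9 on chromosome 16. In the group of 4 guanylate-binding genes on chromosome 3 (142493978 to 142638008), Gbp3 and Gbp2 fell, Gbp7 was not called and Gbp5 was not tested. The IFITM group was the only one of the 10 that held both a rise and a fall.

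Which library was most often highest or lowest was the same for these genes and all genes in RUNX1-RARA, but not in empty vector. Empty vector replicate 1 was the highest of its group for 19 of the 39 tested members (48.7%), against 31.5% of all tested genes. Empty vector replicate 2 was the highest for 13 (33.3%), against 42.5%. Empty vector replicate 3 was the lowest for 17 (43.6%), against 36.6%. RUNX1-RARA replicate 2 was the lowest of its group for 18 members (46.2%), against 39% of all tested genes, and RUNX1-RARA replicate 1 for 7 (17.9%), against 25.7%. RUNX1-RARA replicate 3 was the highest for 16 members (41%), against 43.2%. The median deviation of the members from their group mean was between -0.012 and 0.0195 on the log2(FPKM + 1) scale in the 6 libraries.

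The interferon genes themselves were hardly detected. None of 11 listed ligand genes reached 1 FPKM in any library, and they summed to between 0 and 0.207 FPKM in RUNX1-RARA libraries and between 0 and 0.03 FPKM in empty vector libraries. Ifnb1, the interferon-beta gene, was listed at 0.1, 0 and 0.066 FPKM in RUNX1-RARA libraries and at 0 in all empty vector libraries, and Ifng was listed at 0 in all 6.

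Among 13 other receptor and JAK-STAT genes, 9 fell and 2 rose, where 31.7% of all tested genes fell and 46% rose. In this list 1 gene, Ifnlr1, reached 1 FPKM only in empty vector libraries. Ifnlr1, a chain of the interferon-lambda receptor, was listed at 0 in all RUNX1-RARA libraries and had 4.29, 3.9 and 4.49 FPKM in empty vector libraries (limma adjusted p = 2.14e-10). Ifngr1, the ligand-binding chain of the interferon-gamma receptor, had 41.6, 39.3 and 46.3 FPKM with the fusion and 151, 155 and 145 FPKM in empty vector, 3.54-fold lower (limma adjusted p = 2.70e-09). Il10rb, a chain that the interleukin-10 and interferon-lambda receptors share, fell 3.5-fold (limma adjusted p = 1.96e-09) and shares exons with the same Gm21970 as Ifnar2. Socs1, an inhibitor of JAK kinases, rose instead, with 3.18, 3.26 and 2.61 FPKM in RUNX1-RARA libraries against 1.6, 1.88 and 1.72 FPKM in empty vector libraries (limma adjusted p = 8.60e-05).

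Among 10 interferon regulatory factor genes, 7 of the 9 tested fell and 1 rose, where 31.7% of all tested genes fell and 46% rose. Of the 9, 1 gene, Irf4, reached 1 FPKM only in empty vector libraries. Irf4 averaged 0.323 ± 0.0323 FPKM in RUNX1-RARA and 2.51 ± 0.0394 FPKM in empty vector cells (SD, n = 3 per group), 7.78-fold lower, and Irf8, a factor of monocyte and dendritic cell development, averaged 1.64 FPKM in RUNX1-RARA and 5.68 FPKM in empty vector cells, 3.46-fold lower. Irf7, which amplifies the interferon response, averaged 1.70 FPKM in RUNX1-RARA and 4.17 FPKM in empty vector cells, 2.45-fold lower. Irf3, which starts the response, averaged 19.7 FPKM in RUNX1-RARA and 14.0 FPKM in empty vector cells, 1.40-fold higher. The limma adjusted p was 2.09e-05 or lower for these 4. Irf7 overlaps Phrf1 and Irf3 overlaps Bcl2l12 on the opposite strand.

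Of 12 genes that sense nucleic acid upstream of interferon, 7 of the 10 tested fell and 1 rose. Over all tested genes, 31.7% fell and 46% rose. Of the 10, 1 gene, Tlr7, reached 1 FPKM only in empty vector libraries. Unc93b1, which carries endosomal Toll-like receptors to their compartment, averaged 1.80 FPKM in RUNX1-RARA and 35.4 FPKM in empty vector cells, 19.7-fold lower (limma adjusted p = 2.12e-11). Tlr7, an endosomal receptor for single-stranded RNA, averaged 0.49 FPKM in RUNX1-RARA and 7.94 FPKM in empty vector cells, 16.2-fold lower (limma adjusted p = 1.54e-10), and the kinase gene Ikbke fell 2.24-fold (limma adjusted p = 5.02e-07). Mavs, the adaptor of the RNA helicases, was 1.81-fold higher, at 6.93 FPKM in RUNX1-RARA and 3.82 FPKM in empty vector cells (limma adjusted p = 1.93e-05).

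A further list of 52 interferon-stimulated genes, of which 51 were matched and 40 tested, held 27 falls and 9 rises, where 31.7% of all tested genes were called lower and 46% higher. Of the 40, 7 (Slfn1, Ifi209, Ifi211, Rtp4, Ddx60, Phf11b and Ube2l6) reached 1 FPKM only in empty vector libraries and could only be called lower. Ifitm6, another IFITM gene, averaged 5.41 ± 0.348 FPKM in RUNX1-RARA and 255 ± 18.3 FPKM in empty vector cells (SD, n = 3 per group), 47.2-fold lower. The Schlafen gene Slfn1 averaged 0.334 FPKM in RUNX1-RARA and 31.2 FPKM in empty vector cells, 93.5-fold lower. Ifi209, of the Ifi200 family, averaged 0.0533 FPKM in RUNX1-RARA and 4.47 FPKM in empty vector cells, 83.8-fold lower. The limma adjusted p was 2.41e-10 or lower for the 3. Uba7, the enzyme that activates ISG15, rose 2.75-fold, at 31.2 FPKM in RUNX1-RARA and 11.3 FPKM in empty vector cells (limma adjusted p = 4.75e-09), and shares exons with Gm20661, at 15.8 FPKM in RUNX1-RARA and 5.22 FPKM in empty vector cells. After TMM scaling the 9 rises became 5.

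Genes induced mainly by interferon-gamma were mixed, with 5 higher and 4 lower of 13 tested (25 listed, 23 matched). This split lies near that over all tested genes, of which 46% were called higher and 31.7% lower. Of these 13, Nos2, Gbp8 and Gbp9 reached 1 FPKM only in empty vector libraries. Nos2, the inducible nitric oxide synthase gene, averaged 0.071 FPKM in RUNX1-RARA and 3.36 FPKM in empty vector cells, 47.3-fold lower (limma adjusted p = 4.61e-10). The immunity-related GTPase genes Tgtp2 and Ifi47 rose: Tgtp2 averaged 6.05 FPKM in RUNX1-RARA and 1.30 FPKM in empty vector cells (limma adjusted p = 1.61e-07), and Ifi47 averaged 40.0 FPKM in RUNX1-RARA and 14.8 FPKM in empty vector cells (limma adjusted p = 1.75e-08). Tgtp2 has a near-identical copy, Tgtp1, at 0.536 FPKM in RUNX1-RARA and 0.159 FPKM in empty vector cells, and Ifi47 shares exons with Olfr56, so both levels are uncertain.

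**Figure D5:**
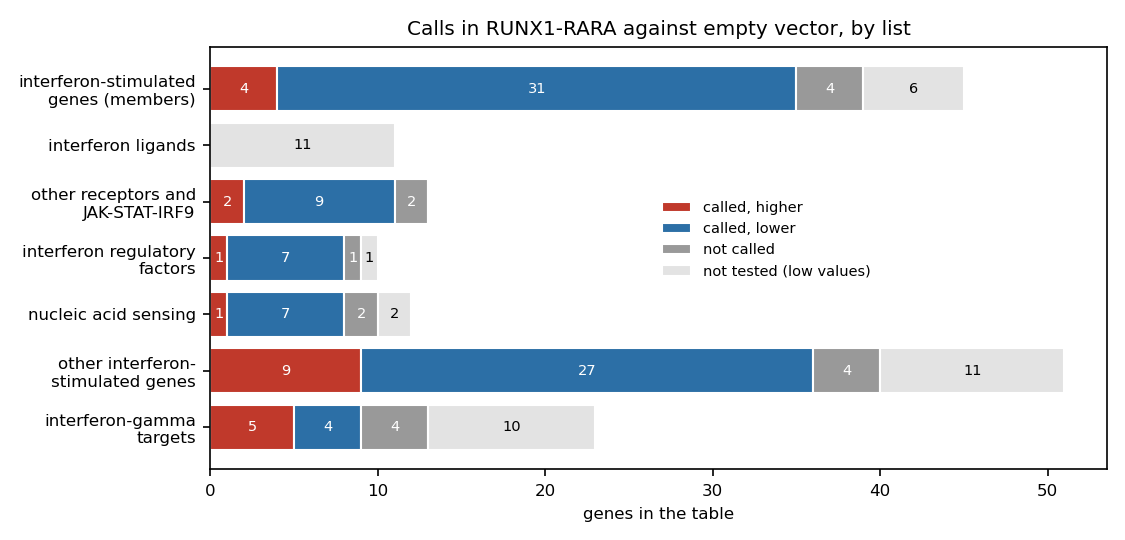
Number of genes called higher, called lower, not called and not tested in RUNX1-RARA against empty vector, for the 45 members and for 6 further interferon lists. Falls outnumber rises in the members (31 and 4) and in 4 of the other lists, the interferon-gamma targets are mixed (4 and 5), and no ligand gene was tested. Over all tested genes, 31.7% were called lower and 46% higher.

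Marker genes of other cell types moved between the same libraries, where 31.7% of all tested genes were called lower and 46% higher. All 12 mature neutrophil markers fell, 2 of them at 1 FPKM or more only in empty vector libraries. Their summed levels were 2573 to 3130 FPKM in RUNX1-RARA and 57348 to 64361 FPKM in empty vector libraries. Of 12 monocyte and macrophage markers 10 fell, 4 of them at 1 FPKM or more only in empty vector libraries, with sums of 592 to 624 FPKM in RUNX1-RARA and 5587 to 6095 FPKM in empty vector libraries. Of 10 conventional dendritic cell markers 5 were tested and fell, with sums of 24.9 to 28.3 FPKM in RUNX1-RARA and 149 to 158 FPKM in empty vector libraries. Cd74, H2-Aa, H2-Ab1 and H2-Eb1 made up most of these sums. Flt3, Zbtb46, Xcr1, Clec9a and Cd209a were under 1 FPKM in every library of both groups and were not tested. The 10 plasmacytoid dendritic cell markers summed to 1.66 to 2.12 FPKM in RUNX1-RARA and 2.25 to 2.76 FPKM in empty vector libraries. The 6 pan-haematopoietic markers were all present and lower, with Ptprc (CD45) at 75.3 FPKM in RUNX1-RARA and 156 FPKM in empty vector cells. Of the 13 matched T and NK cell markers 4 were tested and rose, 3 of them at 1 FPKM or more only in RUNX1-RARA libraries, with sums of 70.6 to 91.6 FPKM in RUNX1-RARA and 27.0 to 29.8 FPKM in empty vector libraries. Nkg7 alone averaged 71.2 FPKM in RUNX1-RARA and 26.3 FPKM in empty vector cells, while Cd3e was listed at 0 in all RUNX1-RARA libraries and at 0.038, 0 and 0 FPKM in empty vector libraries. B cell markers summed to 0.576 to 1.40 FPKM in RUNX1-RARA and 3.15 to 3.45 FPKM in empty vector libraries. Erythroid markers summed to 28.4 to 32.8 FPKM in RUNX1-RARA and 2.92 to 3.88 FPKM in empty vector libraries. Megakaryocyte markers summed to 58.4 to 63.5 FPKM in RUNX1-RARA and 86.7 to 93.8 FPKM in empty vector libraries, but the 4 tested ones split. Itga2b was 4.43-fold higher, at 55.9 FPKM in RUNX1-RARA and 12.6 FPKM in empty vector cells. Pf4 was 9.23-fold, Ppbp 58.3-fold and Gp1bb 79.8-fold lower. Ppbp and Gp1bb reached 1 FPKM only in empty vector libraries and could only be called lower. Stromal and endothelial markers, mostly Pecam1, summed to 110.7 to 112 FPKM in RUNX1-RARA and 35.3 to 36.4 FPKM in empty vector libraries. The part of these markers' cells in the levels of the interferon-stimulated genes was not tested.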

How the data were processed

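RNA of 6 libraries was sequenced, 3 per group, with groups from the genotype label and table columns tied to samples by the names the labels quote. The values are FPKM as deposited by the authors, rounded to 3 decimals. The submitters' processing notes name DESeq2 1.32.0, featureCounts 2.0.1, HISAT2 2.2.1 and fastp 0.22.0, with mm10 and hg38 as builds. Annotation release, strandedness and handling of shared reads: not given in the sources used here. The members, their roles and the gene lists were chosen with earlier results of these data known.

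FPKM hold no counts. From the steps between low values and exon lengths of GENCODE M21 (mm10), depth was estimated at 26.6 to 90.4 M reads. On that estimate 82.9% to 91.0% of low values came within 0.1 of whole reads (20% by chance), and 63.7% to 71.0% of these were even, so reads were not rebuilt, no count test was run, and only relative depth is firm.

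In R 4.3.3, limma 3.58.1 modelled log2(FPKM + 1) by group (trended empirical Bayes) for genes at 1 FPKM or more in at least 3 libraries, with Benjamini-Hochberg adjustment over all 10901 tested genes and calls under 0.05. The script was tested on simulated data. Positive log2 fold changes mean higher in RUNX1-RARA, and they understate changes of low genes. Folds are ratios of mean FPKM, and errors are SD over 3 libraries or the SE of the fit. In each role, library values are given for called members, at most 3, ranked by size of change, and for the strongest opposite one. In each further list, up to 3 called genes and 1 opposite gene are named. Alternatives were another pseudocount, 2 other filters, 3 scalings (TMM, equal FPKM sums, quantile), each library left out, and a replicate block. Mnda, Iigp1b, Gm12250 and Trac of the lists were not matched.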

Additional observations from a re-analysis of the deposited data

How the results depend on the processing

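Of the 39 tested members, 35 kept their call in every alternative in which they were tested. Among them Gbp7, which was not called, changed sign without RUNX1-RARA replicate 1 (0.0070 instead of -0.05 on the log2 scale). Those that did not keep their call were Stat2, Trim25, Eif2ak2 and Ifitm2, whose values stand beside their results, and no called member changed sign. The members that fell numbered between 30 and 36 and those that rose between 3 and 5 over the 13 alternatives. With no filter on low values, 36 fell and 5 rose. With 1 library left out, 31 fell each time and 3 to 5 rose. Every member that fell kept an adjusted p of 0.0101 or lower. The labels do not say whether replicate numbers pair the samples. Deviations of same-numbered libraries correlated at 0.0219, -0.375 and -0.0647, which cannot settle it. The fit with a replicate block called 31 members lower and 4 higher. Of the further lists, interferon regulatory factors called higher numbered 2 instead of 1 and interferon-gamma targets called lower 7 instead of 4 with no filter on low values, which tests more genes, and other interferon-stimulated genes called higher numbered 5 instead of 9 after TMM scaling, which lowers all RUNX1-RARA values relative to empty vector. Members near 0, such as Ifi44 and Mx2, rest on a few reads in RUNX1-RARA libraries. Without RUNX1-RARA replicate 1 the ratio of means of Ifi44 was 25.5 instead of 15.1.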
